A study of Mus musculus with 4 samples.

Results

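Cytochrome P450 enzymes of families 2, 3 and 4 were described in small-intestinal crypts of fed and fasted mice. The members are all genes whose symbol is Cyp followed by 2, 3 or 4 and then a letter, a rule on the symbol alone. They number 70 of the 27425 genes in the authors' deposited tables, with 42 in family 2, 8 in family 3 and 20 in family 4, and 5 of them are pseudogenes or opposite-strand transcripts. The table of mice without tetracycline lists 68 members of 25522 genes, and the table of mice with it lists 65 of 26085. The samples are male C57BL/6J mice aged 9 weeks in 4 groups: fed and fasted mice that got no tetracycline, and fed and fasted mice treated with the antibiotic for 21 days, with a fast of 24 hours. Crypts, the pits of the gut lining that hold the stem cells, were loosened in a chelating buffer and split into cells with trypsin, and the libraries do not keep the strand. The study asked how a loss of what the labels call AKK, brought about with tetracycline, alters the difference between fed and fasted mice. No level of AKK is among the values used here.

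P450 enzymes are membrane-bound haem proteins that add an oxygen atom to their substrates, taking electrons from P450 reductase. Families 2 and 3 are best known for drugs, steroids and arachidonic acid, and many members respond to the xenobiotic receptors PXR and CAR. Family 4 enzymes hydroxylate fatty acids at or near their methyl end, and the Cyp4a genes are classic targets of the fatty acid receptor PPAR alpha. In the gut wall these enzymes meet food and drugs before the liver does.

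The labels list 1 sample per group, but the tables hold 4 libraries each, 2 fasted and 2 fed, as shown by the whole counts that can be solved from the deposited means. On each side, library 1 has the larger size factor, and no library can be tied to a labelled sample or paired with one of the other side. Nothing says that the 2 libraries of a side came from separate mice, so the p-values measure the spread between these libraries. Values per library are counts divided by the library's size factor, called normalized counts here. Size factors spanned a ratio of 1.17 without and 1.75 with tetracycline. No column states which side is the numerator: changes are taken as fasted over fed because the tables' names put fasted first, and all directions below rest on that reading. The solved counts return the deposited changes more closely when the side taken as fasted is the reference level of the model (median error 1.3e-09 against 1.1e-06 without, 2.1e-08 against 2.5e-06 with tetracycline), and the tables do not say why.

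Cyp4a10, Cyp4a31 and Cyp4a32 had the 3 largest rises with fasting without tetracycline among members with a mean of at least 10, and they are near-copies of each other, so their sequences come first. Cyp4a10 (chr4:115518264-115533649, plus strand, GENCODE M21 on GRCm38, the assembly also named mm10), Cyp4a31 (chr4:115563649-115579015) and Cyp4a32 (chr4:115600969-115621602) lie side by side. Their coding sequences were 96.6% identical between Cyp4a10 and Cyp4a31, 97.2% between Cyp4a10 and Cyp4a32, and 96.0% between Cyp4a31 and Cyp4a32. Cyp4a10 and Cyp4a14 were only 75.6% identical. The first 90 coding bases, taken from the reference by the GENCODE coordinates, show how few positions tell the genes apart, with capitals at bases that differ from Cyp4a10.
Cyp4a10: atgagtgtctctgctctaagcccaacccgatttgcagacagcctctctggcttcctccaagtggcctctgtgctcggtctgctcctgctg
Cyp4a31: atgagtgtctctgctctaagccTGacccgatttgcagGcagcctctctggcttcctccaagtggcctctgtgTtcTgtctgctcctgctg
Cyp4a32: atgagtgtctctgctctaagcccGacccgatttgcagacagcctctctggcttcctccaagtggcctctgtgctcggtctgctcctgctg
In this stretch Cyp4a31 differed from Cyp4a10 at 5 bases and Cyp4a32 at 1. Of all 50-base windows of the transcript, 30.5% in Cyp4a10, 21.7% in Cyp4a31 and 46.8% in Cyp4a32 occurred in the transcripts of another gene. The split of reads among these genes is therefore uncertain, and the levels of Cyp4a31 and Cyp4a32 were 0.431% and 1.39% of the Cyp4a10 mean without tetracycline, and 0.704% and 1.03% with it.

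Per kilobase of the longest coding transcript, Cyp3a11 was the most abundant member, ahead of Cyp4f14, Cyp3a13, Cyp2d26, Cyp2b10, Cyp4v3 and Cyp2c65 in the mice without tetracycline. Cyp3a11, the main drug- and steroid-oxidizing P450 of mouse gut and liver, had a mean of 44683 normalized counts per kilobase without and 61346 with tetracycline. Cyp4f14, a leukotriene and fatty acid hydroxylase, followed with 20009 and 16072. Cyp3a13 had 14645 and 16565, and Cyp2d26 10702 and 12124. Cyp2b10, known as a CAR target, had 10698 and 8696. Cyp4b1, which hydroxylates fatty acids and some toxins, had 5342 and 7772, and Cyp4a10 3999 and 4295. From Cyp4f14 down to Cyp2j6 neighbouring means in that order differed by less than their single libraries did, and Cyp3a13 stood above Cyp4f14 with tetracycline. Together the members made up 0.582% of all normalized counts without and 0.646% with tetracycline. Cyp4a14, a PPAR alpha target in liver, was barely read: it had 1 count in a fasted and 1 in a fed library without tetracycline and is not listed with it.

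**Figure D1:**
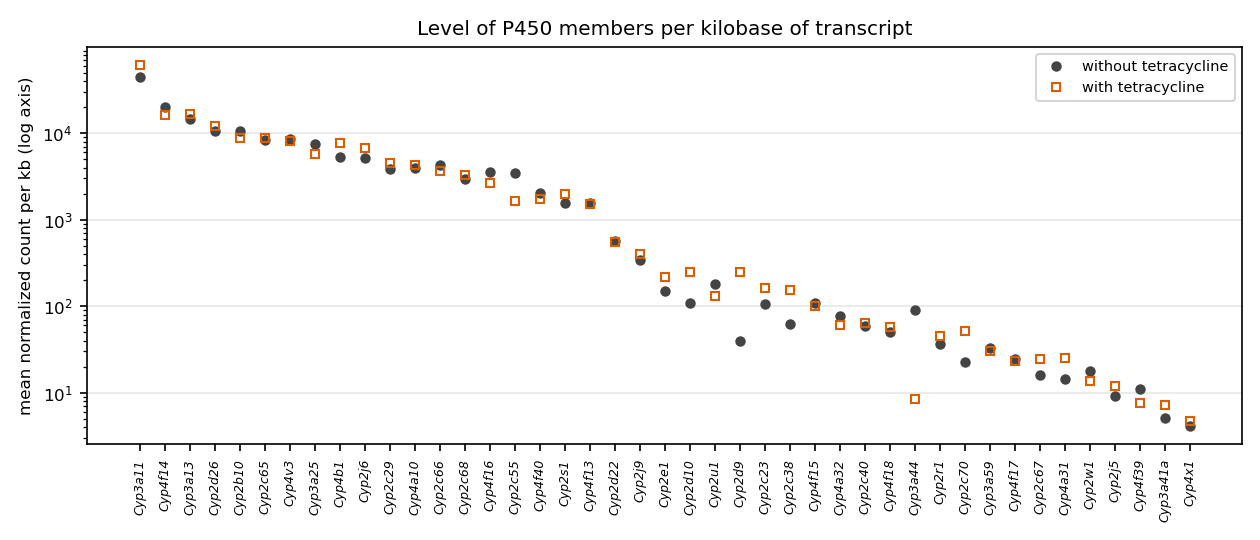
Mean normalized count per kilobase of transcript (vertical, log axis) for 43 members with a mean of at least 10 in both tables and a coding transcript, without (filled circles) and with tetracycline (open squares). Each point is the authors' mean over the 4 libraries of a table. Cyp3a11 stands at the top in both tables, and Cyp3a44 (89.8 and 8.46) and Cyp2d9 (39.7 and 249) are the members whose 2 points lie farthest apart.

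The first comparison set fasted against fed mice without tetracycline. In family 4, Cyp4a10, Cyp4a31, Cyp4a32 and Cyp4b1 rose, by 1.57 to 4.18 on the log2 scale, while the fatty acid hydroxylases Cyp4f14 and Cyp4v3 did not pass the test. Cyp2d9, Cyp2c38 and Cyp2e1 rose as well, and Cyp2c55 and Cyp4f16 fell. Of the 52 members with an adjusted p in the authors' deposited table, 9 were called under 0.05, 7 higher and 2 lower in fasted mice, beside 2.27% of all genes tested (1.06% higher, 1.22% lower). Of the 45 members with a mean of at least 10, 10 were at least 2-fold higher and 3 at least 2-fold lower, beside 5.06% and 4.98% of all genes. Both fasted libraries lay above both fed ones for 12 of the 45 and below for 8, beside 21.6% and 23.5% of all genes with a mean of 10 to 30000. The highest library was fasted library 1 for 17, fasted library 2 for 15 and fed library 2 for 12, beside 26.9%, 24.9% and 28.8%. Fed library 1 stood apart: 25 of the 45 members were lowest there, beside 17.5% of all genes, and 39 were higher in fed library 2 than in fed library 1, beside 51.1%. The median log2 ratio of fed library 2 to fed library 1 was 0.68 over the members and 0.013 over all genes. Without fed library 1 the members at least 2-fold higher and lower numbered 11 and 7, and without fed library 2 they numbered 17 and 2. They numbered 11 and 6 without fasted library 1, and 12 and 3 without fasted library 2. The median log2 change of those 45 was 0.29, and 32 were above 0. Over all genes with such a mean the median was -0.0019, and 49.8% were above 0.

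Cyp4a10, a fatty acid omega-hydroxylase, had 10320.5 and 21654 normalized counts in the fasted libraries and 454 and 1311 in the fed. Every fasted library was above every fed library. The authors' deposited table gives a log2 change of 4.18 (SE 0.87, adjusted p 0.00024). Without fasted library 2 the log2 ratio of the remaining counts was 3.55, and without fed library 2 it was 5.14. Cyp4a31 had 30.3 and 102 normalized counts in the fasted and 1.98 and 11.1 in the fed libraries, again with no overlap. Its log2 change in the authors' deposited table was 3.34 (SE 0.90, adjusted p 0.0136), and the fed level rests on a handful of reads. It was 2.22 without fasted library 2 and 5.06 without fed library 2. Cyp4a32 had 98.2 and 303 normalized counts in the fasted and 30.8 and 38.2 in the fed libraries. The change was 2.54 on the log2 scale (SE 0.57, adjusted p 0.000976) by the authors' deposited table, 1.51 without fasted library 2 and 3.14 without fasted library 1. Cyp4a10, Cyp4a31 and Cyp4a32 were each highest in fasted library 2.

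Cyp4b1 behaved otherwise between libraries, with 19858 and 10395 normalized counts in the fasted and 3242 and 6934 in the fed libraries. The fasted libraries were above the fed ones, and fasted library 1 was the higher. The log2 change was 1.57 (SE 0.40, adjusted p 0.00777) by the authors' deposited table, 1.03 without fasted library 1 and 2.22 without fed library 2. Cyp4f16, a relative of the leukotriene hydroxylases, fell, with 5695 and 4985 normalized counts in the fasted and 9994 and 10831 in the fed libraries. The fasted libraries differed 1.14-fold and the fed libraries 1.08-fold. The authors' deposited table has a log2 change of -0.96 (SE 0.25, adjusted p 0.00871), and it stayed between -1.06 and -0.87 whichever library was left out. Of its transcript windows, 26.5% were shared, with Cyp4f37 the gene sharing the most. No other family 4 member was called. Among these the log2 change was 0.16 for Cyp4f14 and 0.88 for the fatty acid hydroxylase Cyp4v3 in the authors' deposited table (adjusted p 0.969 and 0.332). It was -0.72 there for Cyp4f18, which had a mean of only 85.6 (adjusted p 0.697). Cyp4f14 had 71788 and 21896 normalized counts in the fasted and 31426 and 52653 in the fed libraries, and its log2 ratio was -0.94 without fasted library 1 and 0.77 without fasted library 2. For Cyp4v3 these values were 0.18 and 1.35, and Cyp4f18 ran from -1.13 without fasted library 2 to -0.35 without fed library 2.

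Cyp2c55, a gut-expressed oxidase of arachidonic acid, showed the largest fall among members with a mean of at least 10. It had 3916 and 1360 normalized counts in the fasted and 9423 and 12817 in the fed libraries, without overlap. The log2 change in the authors' deposited table was -2.08 (SE 0.42, adjusted p 0.000178); it was -3.03 without fasted library 1 and -1.51 without fasted library 2. Only 0.514% of its transcript windows were shared, so its reads are largely its own. Its promoter, from RefSeq on GRCm38.p6 (chr19:39006769-39007068, plus strand, 250 bases before to 50 after the gene's start), is shown because it is the clearest fall of family 2, with the TATAAA motif in capitals at position -29.
Cyp2c55: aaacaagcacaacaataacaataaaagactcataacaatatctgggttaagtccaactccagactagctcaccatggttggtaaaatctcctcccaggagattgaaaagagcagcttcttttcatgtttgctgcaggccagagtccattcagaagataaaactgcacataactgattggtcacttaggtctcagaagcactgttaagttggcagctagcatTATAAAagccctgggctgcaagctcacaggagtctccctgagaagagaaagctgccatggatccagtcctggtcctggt
Its neighbours in subfamily 2c were lower in both fasted libraries too but were not called. Cyp2c66 had 4511 and 4764 normalized counts in the fasted and 6435 and 12338 in the fed libraries, a log2 change of -1.02 (SE 0.33, adjusted p 0.0828) by the authors' deposited table. Cyp2c65, 96.3% identical to Cyp2c66 in coding sequence, had -0.52 there (SE 0.30, adjusted p 0.58). Cyp2b10 was also lower in both fasted libraries, at 17401 and 11573 against 18163 and 34856 normalized counts, and its change of -0.87 (SE 0.36) in the authors' deposited table was not called (adjusted p 0.253). Without fed library 1 the log2 ratio was -1.41 for Cyp2c66, -0.82 for Cyp2c65 and -1.27 for Cyp2b10, and without fed library 2 it was -0.47, -0.13 and -0.33. The pseudogene Cyp2c52-ps was barely read, at 13.8 and 2.15 normalized counts in the fasted and 18.9 and 18.1 in the fed libraries, and its change of -1.20 (SE 1.12) was not called in the authors' deposited table and went to -3.10 without fasted library 1 and -0.42 without fasted library 2. Cyp2c29 spread too widely to place, from 2924 to 8136 normalized counts in the fasted and from 3352 to 13052 in the fed libraries.

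Cyp2c38, by contrast, rose: it had 252 and 274 normalized counts in the fasted and 67.5 and 126 in the fed libraries. The log2 change was 1.45 (SE 0.42, adjusted p 0.0275) by the authors' deposited table, 1.07 without fed library 1 and 1.96 without fed library 2. Cyp2e1, the ethanol- and acetone-oxidizing P450, had 312 and 476 normalized counts in the fasted and 198 and 97.5 in the fed libraries. Fasting changed it by 1.41 on the log2 scale (SE 0.43, adjusted p 0.0423) by the authors' deposited table, 0.99 without fed library 2 and 2.02 without fed library 1. Cyp2d9, a steroid 16 alpha-hydroxylase of male mouse liver, had 114 and 115 normalized counts in the fasted and 11.9 and 31.1 in the fed libraries. Its log2 change was 2.41 (SE 0.58, adjusted p 0.00333) by the authors' deposited table, 1.88 without fed library 1 and 3.26 without fed library 2. For all of these the fasted and fed libraries did not overlap.

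Cyp2d9 and Cyp2d10 share much of their sequence and had similar patterns, so both promoters are shown. The coding sequences were 92.5% and the promoters 82.9% identical, and 29.0% and 40.5% of the transcript windows were shared with other genes. The RefSeq promoters on GRCm38.p6 are at chr15:82452127-82452426 on the plus strand for Cyp2d9 and at chr15:82407145-82407444 on the minus strand for Cyp2d10. Capitals mark bases that did not align to the same base in the other promoter.
Cyp2d9: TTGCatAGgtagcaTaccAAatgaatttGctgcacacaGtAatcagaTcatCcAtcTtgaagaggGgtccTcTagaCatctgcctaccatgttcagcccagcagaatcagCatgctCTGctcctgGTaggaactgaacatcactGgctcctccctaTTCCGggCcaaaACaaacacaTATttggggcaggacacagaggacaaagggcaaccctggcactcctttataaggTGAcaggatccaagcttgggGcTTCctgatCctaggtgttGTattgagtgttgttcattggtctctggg
Cyp2d10: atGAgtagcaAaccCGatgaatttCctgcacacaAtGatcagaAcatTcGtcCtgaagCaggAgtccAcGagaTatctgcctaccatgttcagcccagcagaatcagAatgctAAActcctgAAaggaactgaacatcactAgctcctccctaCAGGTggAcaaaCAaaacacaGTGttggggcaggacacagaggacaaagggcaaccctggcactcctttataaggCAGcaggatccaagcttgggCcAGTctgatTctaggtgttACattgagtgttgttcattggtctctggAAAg
Cyp2d10 had 237 and 279.6 normalized counts in the fasted and 32.7 and 160 in the fed libraries without tetracycline, and its log2 change of 1.42 (SE 0.58) in the authors' deposited table was not called (adjusted p 0.253) and was under 2-fold without fed library 1.

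By the authors' DESeq2 test 0 of 6 family 3 members were called without tetracycline, and 1 (Cyp3a13) had an unadjusted p under 0.05. Cyp3a11 had 160258 and 100457 normalized counts in the fasted and 44267 and 113968 in the fed libraries, which overlap. The change of 0.72 on the log2 scale was not called (SE 0.41, adjusted p 0.561) by the authors' deposited table. Cyp3a13 had 74866 and 36202 normalized counts in the fasted and 23860 and 38232 in the fed libraries (log2 change 0.84, SE 0.38, adjusted p 0.339 by the authors' deposited table). Leaving out a library moved Cyp3a11 between 0.19 (fed library 1) and 1.56 (fed library 2), and Cyp3a13 between 0.22 (fasted library 1) and 1.27 (fasted library 2). Cyp3a25 had 0.02 and Cyp3a59 0.13 as log2 changes in the authors' deposited table, with adjusted p of 0.995 and 0.981. Both turned sign with the library left out, Cyp3a25 from -0.52 without fasted library 1 to 0.44 without fed library 2, and Cyp3a59 from -0.13 without fasted library 2 to 0.35 without fasted library 1.

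**Figure D2:**
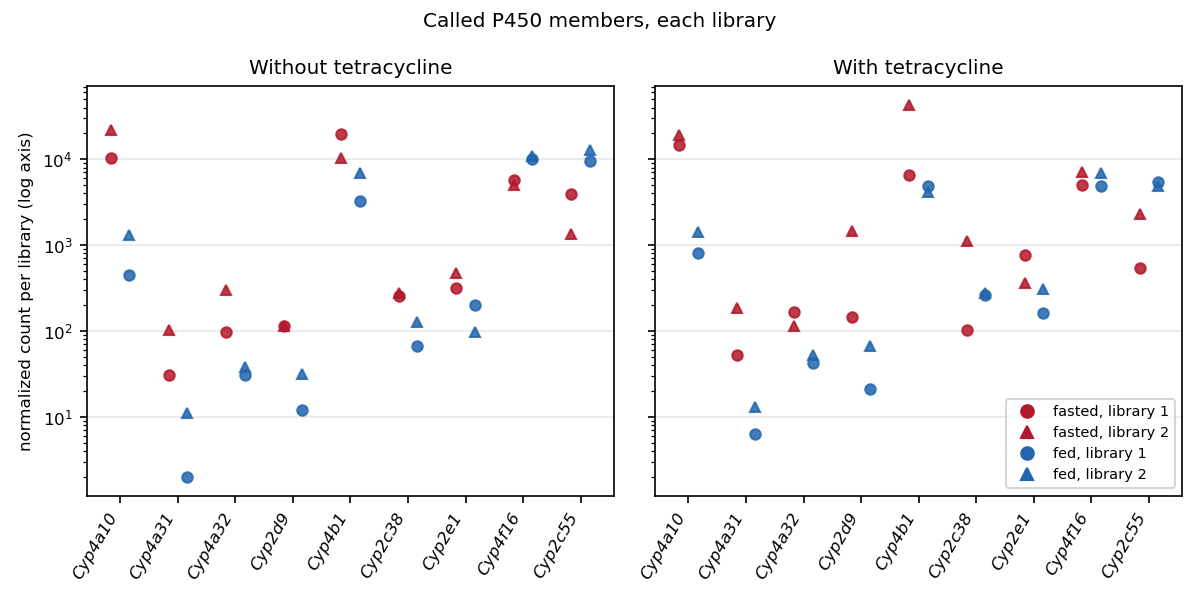
Normalized count (vertical, log axis) of the 9 members called in either table, in each of the 4 libraries of the table without (left) and with tetracycline (right); red marks fasted and blue fed libraries, circles library 1 and triangles library 2. The Cyp4a10 fasted libraries lie at 10320.5 to 21654 and the fed ones at 454 to 1422 over both panels, while with tetracycline the fasted libraries of Cyp2d9 and Cyp4b1 lie far apart.

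The second comparison set fasted against fed mice that had been given tetracycline. Cyp4a10, Cyp4a31 and Cyp2d9 rose, and no member was called lower. Of 51 members with an adjusted p in the authors' deposited table, 3 were called, all higher in fasted mice, beside 0.600% of all genes tested (0.333% higher, 0.267% lower). The same 3 genes were among the 9 called without tetracycline. At least 2-fold changes were more common than calls: among 47 members whose mean reached 10, 18 lay above and 2 below that size, beside 4.28% and 9.24% of all genes. The change was above 0 for 35 of the 47, beside 48.3%, with a median of 0.58.

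Cyp4a10 had 14671 and 19326 normalized counts in the fasted and 812 and 1422 in the fed libraries with tetracycline. The fasted libraries were close to each other and far above the fed ones. The authors' deposited table has a log2 change of 3.93 (SE 0.45, adjusted p 9.08e-14), and it lay between 3.58 and 4.39 whichever library was left out. Cyp4a31 had 52.7 and 183 normalized counts in the fasted and 6.30 and 12.9 in the fed libraries. Its log2 change was 3.63 (SE 0.86, adjusted p 0.00746) by the authors' deposited table, 2.45 without fasted library 2 and 4.25 without fasted library 1. Cyp4a32 had 165 and 113 in the fasted and 41.7 and 52.9 in the fed libraries, which did not overlap, but its change of 1.56 (SE 0.56) in the authors' deposited table was not called (adjusted p 0.354).

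Cyp2d9 had 144 and 1476 normalized counts in the fasted and 21.3 and 66.9 in the fed libraries with tetracycline. Both fasted libraries were above both fed ones, and fasted library 2 carried most of the level. The log2 change was 4.21 (SE 0.95, adjusted p 0.00314) by the authors' deposited table. It was 1.71 without fasted library 2 and 5.25 without fed library 2. Cyp2d10 followed the same shape, with 184 and 1157 in the fasted and 141 and 164 in the fed libraries. Its change of 2.14 (SE 0.78) in the authors' deposited table was not called (adjusted p 0.389), and it was under 2-fold without fasted library 2.

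Most other members were highest in fasted library 2. Cyp3a11 had 27953 and 442613 normalized counts in the fasted libraries and 55705 and 48911 in the fed ones. The lower fasted library was thus below both fed libraries and the other was several times above them. Its log2 change was 2.17 (SE 0.93, adjusted p 0.711) by the authors' deposited table and -0.90 without fasted library 2. Cyp4b1 had 6601 and 43232 normalized counts in the fasted and 4808 and 4175 in the fed libraries. Its change of 2.47 (SE 0.76) was not called (adjusted p 0.125, the authors' deposited table), and without fasted library 2 it was 0.56. Cyp3a13, at 13893 and 119888 in the fasted against 30672 and 31416 in the fed libraries, turned from 1.11 to -1.16 without fasted library 2. Cyp2c29 had 474 and 11678, Cyp2b10 2590.2 and 30945, and Cyp4f14 11811 and 69144 normalized counts in the fasted libraries. In the fed libraries they had 8730 and 11601, 16014 and 17093, and 29739 and 32089. Cyp2c29 was thus about level in fasted library 2 and fed library 2, and low in fasted library 1.

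Fasted library 2 was the highest of the 4 for 37 of the 47 members, beside 33.0% of all genes with a mean of 10 to 30000, and 24 members were lowest in fasted library 1, beside 30.9%. The fasted libraries were over 4-fold apart for 21 members, beside 9.47% of all genes. The median log2 ratio of fasted library 2 to library 1 was 1.72 over the members and -0.013 over all genes. Without fasted library 2 the members at least 2-fold higher went from 18 to 5 (Cyp4a10, Cyp4a31, Cyp4a32, Cyp2d9 and Cyp2e1), and those at least 2-fold lower from 2 to 13. Without fasted library 1 they were 26 and 2. Both fasted libraries lay above both fed ones for 10 of the 47 members and below for 3. Of all genes with a mean of 10 to 30000, 15.8% lay above and 15.5% below. Among the 10 were Cyp4a10, Cyp4a31, Cyp4a32, Cyp2d9, Cyp2e1, Cyp4b1, Cyp2d10, Cyp2c70 and Cyp2j9. The count of 18 at least 2-fold higher rests on fasted library 2. Cyp2e1 itself was highest in the other library, with 759 and 358 normalized counts in the fasted and 160 and 304 in the fed ones. Its log2 change was 1.27 (SE 0.58, adjusted p 0.809) by the authors' deposited table, 0.62 without fasted library 1 and 1.81 without fed library 2.

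Cyp2c55 kept its direction with tetracycline. It had 536 and 2289 normalized counts in the fasted and 5435 and 4917 in the fed libraries, all fasted below all fed. The log2 change was -1.87 (SE 0.66) in the authors' deposited table, and its adjusted p was 0.329. Without fasted library 1 it was -1.18, and without fasted library 2 -3.27. Cyp2c66 and Cyp2c23, a kidney and gut epoxygenase, were also lower in both fasted libraries, with log2 changes of -0.83 and -0.84 in the authors' deposited table and adjusted p of 1. Without fasted library 1 they were -0.24 and -0.14, and without fasted library 2 -1.83 and -2.27. Cyp4f18 was the other member more than 2-fold lower, with a log2 change of -1.06 (SE 0.96, adjusted p 1) by the authors' deposited table; its libraries ranged from 12.4 to 115 fasted and from 79.8 to 188 fed, and the log2 ratio was -3.44 without fasted library 1 and -0.22 without fasted library 2.

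**Figure D3:**
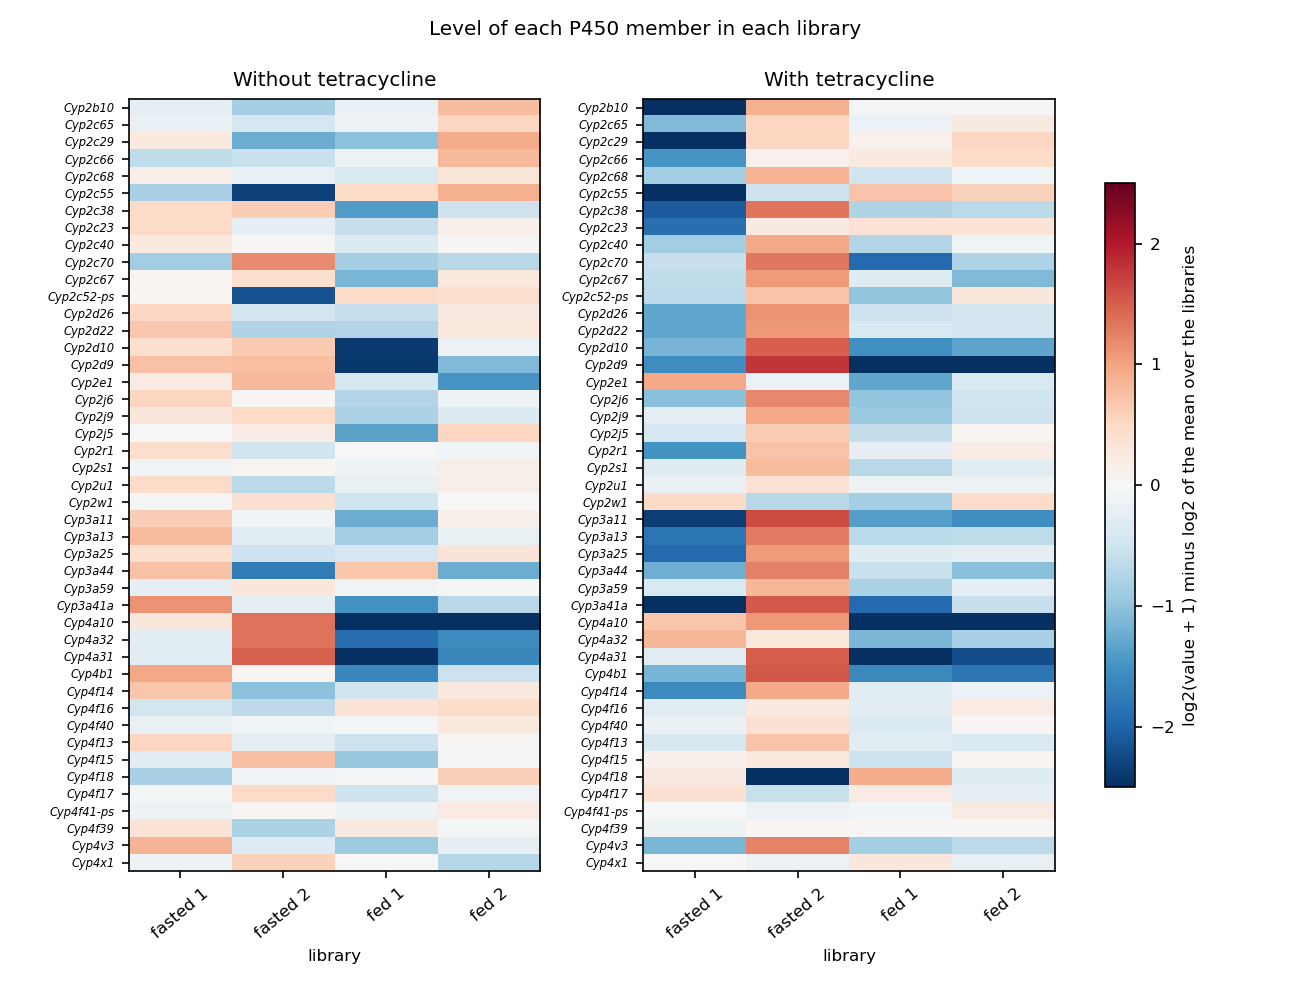
Level of each of 45 members with a mean of at least 10 in both tables (rows, by subfamily) in each library (columns), as log2(value + 1) minus log2 of the mean over the 4 libraries of the table; colours end at 2.5. With tetracycline (right) the column of fasted library 2 is red for most members, whereas the Cyp4a10 row is red in fasted and blue in fed libraries in both panels.

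Marker genes of several cell types also differed between the fasted libraries, and not all in the same direction. Of 8 enterocyte markers, 4 could be solved per library without and 2 with tetracycline, Sis (sucrase-isomaltase) and Lct (lactase) in both. Sis had 44594 and 238224 normalized counts in the fasted and 69785 and 90487 in the fed libraries with tetracycline, the same order as Cyp3a11 apart from the fed libraries. Without tetracycline it had 235358 and 94283 in the fasted and 85470 and 105887 in the fed libraries. Lct had 10035 and 69982 in the fasted and 41582 and 43546 in the fed libraries with tetracycline. Summed over the 8 markers, the group means were 1906552 fasted and 1027863 fed with tetracycline, and 1783645 and 1296903 without. Of the 8, 0 were called in either table (1 at an unadjusted p under 0.05 in each). Above 0 were 6 without and 5 with tetracycline. The 3 with the largest means, Apoa1, Apoa4 and Anpep, had log2 changes of 1.65, 1.20 and 1.06 with tetracycline by the authors' deposited table. Alpi, Vil1 and Lct had -0.42, -0.13 and -0.09 there. The 4 stem cell markers summed to 84909 and 21181 in the fasted and 46039 and 96877 in the fed libraries with tetracycline. They summed to 51434 and 68075 against 96159 and 61788 without. Olfm4 (mean 56702 with tetracycline) made up most of that sum, with a log2 change of -0.51 by the authors' deposited table. Of the 4, 3 were above 0 in each table. The 7 lymphocyte markers summed to 18721 and 3160 in the fasted and 56783 and 14930 in the fed libraries with tetracycline. Without tetracycline the lymphocyte markers summed to 5773 and 11270.5 against 13364 and 16799.8, with 3 of 7 called lower. Of the stromal markers 3 of 6 and of the myeloid markers 1 of 5 were called lower there, with 0 members of these 3 lists above 0 and medians of -1.01 for lymphocyte, -1.85 for stromal and -1.09 for myeloid markers. Of the Paneth markers 4 of 5 were called higher without tetracycline, and they were 195414 and 33289 in the fasted libraries with it, over the 3 that could be solved. Fewer cells of a type and less RNA per cell cannot be told apart in bulk RNA. Markers of the stomach, summed over 4, were at 2.47 and 133 in the fasted and 2107 and 8585 in the fed libraries with tetracycline, and at 2.75 and 652 against 67.5 and 703 without. Markers of the proximal small intestine, over the 7 of 8 that could be solved, summed to 26182 and 94013 in the fasted and 73025 and 81104 in the fed libraries with tetracycline, and to 140032 and 48598 against 65511 and 94518 without. Those of the distal small intestine summed to 9981 and 28522 against 25437 and 19602 with, and to 27633 and 11789.9 against 33609 and 41641 without tetracycline. With tetracycline both sums were thus lowest in fasted library 1 and highest in fasted library 2, as were Cyp3a11 and Sis. The enterocyte marker Lct is also on the proximal list, and it held 69982 of the 94013 in fasted library 2. The rest of the proximal sum was lower in fasted library 2 than in either fed library. Of the 8 proximal markers, 1 was called higher and 2 lower without and 2 lower with tetracycline. Among the 5 distal markers, 1 was called lower without and 0 with tetracycline (1 at an unadjusted p under 0.05 by the authors' DESeq2 test). Of the hepatocyte markers, Ahsg and Fgb had means of at most 1.61 normalized counts, while Alb had 51.9 and 54.8 and Apoh 58.5 and 38.3. Tat had a mean of 18.5 without tetracycline, with a log2 change of 2.69 (SE 1.07, adjusted p 0.225) by the authors' deposited table, and a mean of 5.0 with it. The sums of the hepatocyte markers whose mean reached 10 were 136 and 156 in the fasted and 108 and 116 in the fed libraries without, and 115 and 99.1 against 89.0 and 69.0 with tetracycline. The part of cell composition and gut region in the P450 changes was not tested.

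Set against Sis in the same library, a ratio chosen after the data were seen, the members differed from each other. Cyp4a10 was 4.39% and 23.0% of Sis in the fasted and 0.531% and 1.24% in the fed libraries without tetracycline, and 32.9% and 8.11% against 1.16% and 1.57% with it. Cyp4b1 was 8.44% and 11% against 3.79% and 6.55% without, and 14.8% and 18.1% against 6.89% and 4.61% with tetracycline. Cyp4a10 and Cyp4b1, like Cyp4a31 and Cyp2d9, were thus above both fed libraries in each fasted library of both tables. Other called members overlapped: Cyp2c38 was 0.107% and 0.291% of Sis in the fasted and 0.079% and 0.119% in the fed libraries without tetracycline, and Cyp2e1 0.133% and 0.505% against 0.232% and 0.092%. Both overlapped with tetracycline too. Cyp4a32 and Cyp4f16 were separated without tetracycline and overlapped with it, at 0.371% and 0.0474% against 0.0598% and 0.0584% for Cyp4a32 and 11.2% and 3.0% against 7.06% and 7.65% for Cyp4f16. Sis itself had log2 changes of 0.78 (SE 0.39, adjusted p 0.436) without and 0.82 (SE 0.71, adjusted p 1) with tetracycline by the authors' deposited tables, so a gene with equal fasted and fed means would be lower in the ratio of the means to Sis. Of the 25 members set against Sis, Cyp2b10, Cyp2c29, Cyp2c55, Cyp2c65, Cyp2c66, Cyp3a25 and Cyp4f14 were below both fed libraries in each fasted library of both tables. Cyp2c55 was at 1.66% and 1.44% of Sis against 11% and 12.1% without, and 1.20% and 0.961% against 7.79% and 5.43% with tetracycline. Cyp4f14, not called, was at 30.5% and 23.2% against 36.8% and 49.7% without, and at 26.5% and 29.0% against 42.6% and 35.5% with it. Cyp2b10, not called either, was at 7.39% and 12.3% against 21.3% and 32.9% without, and at 5.81% and 13.0% against 22.9% and 18.9% with it. Cyp3a13 overlapped between fasted and fed in both tables, at 31.8% and 38.4% against 27.9% and 36.1%, and 31.2% and 50.3% against 44.0% and 34.7%. Cyp3a11 overlapped as well, at 62.7% and 186% against 79.8% and 54.1% with tetracycline.

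The third comparison asked whether the fasting change itself differed with tetracycline. By a Wald test of the difference, 0 of 50 members tested were called, beside 0.0228% of all genes, and 1 had an unadjusted p under 0.05, beside 1.05%. That member was Cyp4f16, whose log2 change was 1.0 higher with tetracycline (SE 0.49, unadjusted p 0.042, adjusted p 1). It had 4998 and 7153 normalized counts in the fasted and 4925 and 6927 in the fed libraries with tetracycline, so the groups overlapped there. For Cyp2d9 the difference was 1.79 (SE 1.11, unadjusted p 0.107), for Cyp3a11 1.45 (SE 1.01, p 0.153) and for Cyp4b1 0.90 (SE 0.86, p 0.293). For Cyp4a10 it was -0.25 (SE 0.98, p 0.798). The standard errors of these differences ran from 0.49 to 1.11. Of 45 members with a mean of at least 10 in both tables, 35 had the same direction in both, beside 66.4% of all genes. The tables share no library.

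**Figure D4:**
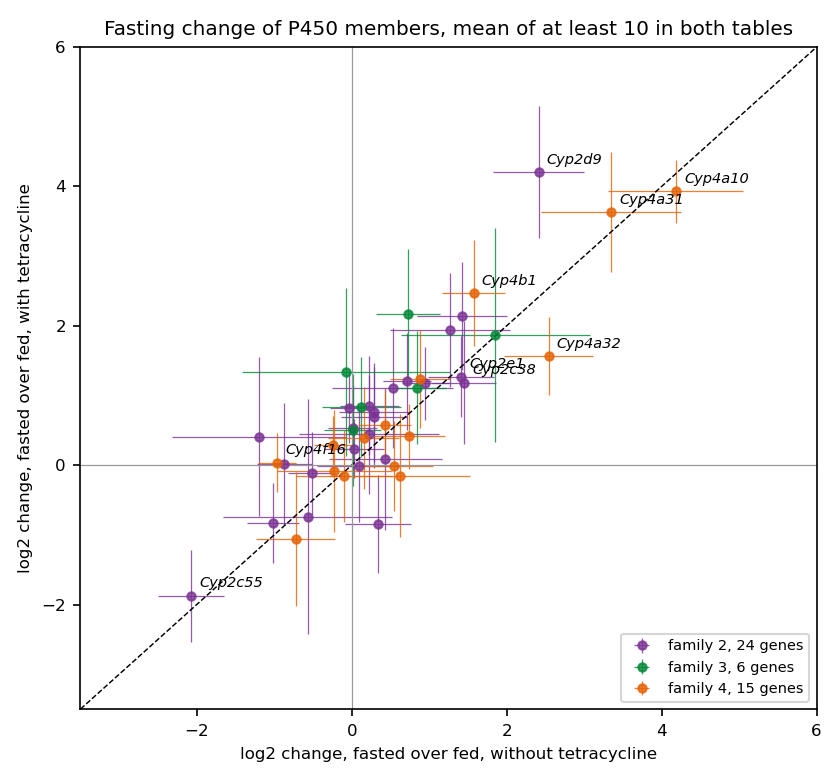
Log2 fasting change without (horizontal) and with tetracycline (vertical) of 45 members with a mean of at least 10 in both tables, from the authors' deposited tables; bars are 1 standard error, colours give the family, the dashed line marks equal changes and names mark the 9 called members. Cyp4a10 and Cyp4a31 sit near the line at the top right and Cyp2c55 near it at the bottom left, while Cyp2d9 and Cyp3a11 sit above it.

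Levels with and without tetracycline were compared without a test, because the tables were scaled separately and give no error across them. On the log2 scale with a pseudocount of 1, centred on all genes, 4 of 45 members differed at least 2-fold in fed mice, 2 higher and 2 lower with tetracycline, beside 6.72% of all genes (5.35% higher, 1.37% lower). In fasted mice 5 did, 4 higher and 1 lower, beside 2.79% (1.06% and 1.73%). Cyp3a44, a female-predominant relative of Cyp3a11, had the largest differences, -4.16 in fed and -2.87 in fasted mice. Without tetracycline its libraries split within each side, with 292 and 51.6 normalized counts fasted and 287 and 74.3 fed, while with tetracycline all were between 6.58 and 41.3. It is 94.9% identical to Cyp3a11 in coding sequence, and 26.5% of its windows were shared. Cyp2c38 was higher with tetracycline by 1.43 in fed and 1.14 in fasted mice. Its fed libraries had 262 and 275 normalized counts with and 67.5 and 126 without, and its fasted libraries with tetracycline had 104 and 1119. Cyp2c55 was lower by 1.14 in fed mice, where both libraries with tetracycline (5435 and 4917) were below both without (9423 and 12817). Cyp2c23 was higher by 1.12 in fed mice, at 406 and 401 against 138 and 224 normalized counts. Cyp2d9 was higher by 2.75 in fasted mice, a value that rests on fasted library 2. Cyp2d10 and Cyp2c70 were higher there by 1.31 and 1.24. Cyp2d10 had 184 and 1157 normalized counts in the fasted libraries with and 237 and 279.6 without tetracycline, so its lower library with tetracycline was below both without. Cyp2c70 had 58.4 and 220.1 with and 21.1 and 90.3 without, and the libraries overlapped. Fasted library 2 was thus the higher library with tetracycline for each of the 4 members.

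The partners and regulators of the P450s were read from gene lists. None of the 17 genes of P450 reductase, cytochrome b5 and haem turnover was called in either table (3 without and 1 with tetracycline at an unadjusted p under 0.05, by the authors' DESeq2 test). Their median log2 change was -0.20 without and -0.04 with tetracycline. Por, the reductase that feeds electrons to all members, had a log2 change of 0.41 without (adjusted p 0.688) and 1.39 with tetracycline (adjusted p 0.625) by the authors' deposited tables. Alas1, the first enzyme of haem synthesis, had -0.62 (adjusted p 0.241) and -0.07 (adjusted p 1). Of the 20 receptors and transcription factors that regulate these genes, 0 were called in either table, with 1 at an unadjusted p under 0.05 in each. Their medians were 0.03 and 0.05. Nr1i2, which encodes PXR, had 0.28 and 0.39, Nr1i3, which encodes CAR, -0.02 and 0.39, and Ppara 0.50 and 0.61 in the authors' deposited tables, none called.

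Of 19 listed targets of PPAR alpha outside the P450s, 12 were called higher without and 6 with tetracycline, none lower, and all 19 were above 0 in both tables, with medians of 1.08 and 1.17. Acot1, an acyl-CoA thioesterase, had log2 changes of 3.83 (SE 0.37, adjusted p 2.1e-22) without and 3.22 (SE 0.56, adjusted p 8.28e-06) with tetracycline by the authors' deposited tables. The list was written with earlier results of these data known and is no independent evidence of direction. Of 12 listed targets of PXR and CAR outside the P450s, 11 had a mean of at least 10. Without tetracycline 0 of these were called higher and 4 lower by the authors' DESeq2 test, and 7 had an unadjusted p under 0.05, 2 of them higher. The 4 called lower were glutathione transferases, with log2 changes of -1.81 for Gsta1, -1.87 for Gstm1, -1.28 for Gstm2 and -1.91 for Gstm3 in the authors' deposited table. With tetracycline 0 were called (1 at an unadjusted p under 0.05), and the medians were -0.44 and -0.22. Of 15 listed genes of arachidonate and epoxide metabolism, Hpgd, which inactivates prostaglandins, alone was called, by 1.25 without tetracycline (SE 0.28, adjusted p 0.00134 by the authors' deposited table). With tetracycline 0 were called and 3 had an unadjusted p under 0.05. The list medians were 0.43 and 0.28.

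Promoters from RefSeq were matched for 54 members, with 61 promoters of 300 bases. Cyp4a10 and Cyp4a31 are not among those matched, so Cyp4a32 stands for the subfamily here. Its promoter (GRCm38.p6, chr4:115600688-115600987, plus strand) is shown with the reverse-strand copies of the 6-base nuclear receptor motif AGTTCA in capitals, at -97 and 31 from the gene's start.
Cyp4a32: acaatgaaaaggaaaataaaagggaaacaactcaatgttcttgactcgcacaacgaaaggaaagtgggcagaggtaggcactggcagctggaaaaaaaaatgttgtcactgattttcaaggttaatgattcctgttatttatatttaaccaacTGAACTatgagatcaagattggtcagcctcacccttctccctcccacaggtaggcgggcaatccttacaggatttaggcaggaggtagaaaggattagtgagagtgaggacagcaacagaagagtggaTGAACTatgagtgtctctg
AGTTCA was found on either strand in 9 of 61 member promoters (14.8%) and in 14.0% of all 32851 promoters, and AGGTCA in 14 (23.0%) and 16.3%. Direct repeats of these motifs with spacers of 1, 3 or 4 bases (such as AGGTCANAGGTCA) and everted repeats with a spacer of 6 were in 0 of 61, beside at most 0.0822% of all promoters. TATAAA was in 24 member promoters (39.3%) on either strand, beside 13.6% of all. It stood on the gene's own strand in 17 members, beside 8.32%, as in Cyp2c55. These are matches of letters in this window and say nothing of binding.

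Among the remaining members, without tetracycline 23 had a mean under 10 and 7 of them under 1, and with it 18 and 4. Cyp2s1, the epithelial retinoid-metabolizing P450, had a log2 change of -0.03 (SE 0.26) without and 0.82 (SE 0.50) with tetracycline in the authors' deposited tables. Cyp2u1 had 0.03 and 0.24, and Cyp2r1, a vitamin D 25-hydroxylase, 0.09 and -0.01. Cyp2j6 and Cyp2j9, epoxygenases of arachidonic acid, were higher in fasted mice by 0.71 and 0.95 without (adjusted p 0.321 and 0.0661) and by 1.20 and 1.17 with tetracycline (adjusted p 1 and 0.8), all from the authors' deposited tables. With tetracycline Cyp2j6 turned to -0.33 without fasted library 2. Cyp2j9 had 849 and 987 normalized counts in the fasted and 403 and 548 in the fed libraries without, and 690 and 1559 against 428 and 568 with tetracycline, without overlap in either table.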

How the data were processed

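RNA-seq of crypts was analysed from 2 tables of the authors' own comparisons, fasted against fed mice. The submitters' processing notes name Salmon, mm10 and the authors' DESeq2, without versions, and per the file headers the authors deposited DESeq2 output. The deposited mean is a signal: size-factor-scaled counts averaged over libraries. The deposited fold change, like its error, is a log2 value. The deposited test statistic is a score, the change over its error. The deposited p-values are two-sided Wald tests, Benjamini-Hochberg adjusted over rows that carry an adjusted value. These relations were checked on the values. No column states the direction. The design written at the start planned protein features, not analysed here. There are 0 further per-sample columns.

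Because size factors divide whole counts, each mean is built from whole counts, each weighted by its library. The weights came from the lowest means. Whole numbers that give the deposited mean were listed, and a negative binomial fit of each candidate, used for nothing else, chose those closest to the deposited change and error. This gave 16582 of 16586 genes without and 16891 of 16895 with tetracycline (mean 10 to 30000) and every member; the solved counts return the change within 4.7e-05 at most. The solved counts are single values, and no test was run on them. Intervals of counting error do not apply to them.

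Group means were rebuilt from mean and change. The Wald test of the difference was adjusted over 17571 genes with an adjusted p in both tables and checked on simulated data, as was the count solving. Members and lists were chosen with earlier results of these data known. Named are members called at an adjusted p under 0.05, the 5 highest means per family, the 3 largest rises and falls per table at a mean of at least 10, and differences at p under 0.05; Cyp2c70, Cyp2d10, Cyp2j9, Cyp2r1, Cyp2s1, Cyp2u1 and Cyp4a14 were added after their values were seen. Python 3.11.15, scipy 1.17.1 and numba 0.67.0 were used. The values of 1 listed gene are not reported here.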

Additional observations from a re-analysis of the deposited data

How the results depend on the processing

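The 9 members called without tetracycline became 6 at an adjusted p under 0.01 (losing Cyp2c38, Cyp2e1 and Cyp4a31), 8 when adjusted over all rows (losing Cyp2e1) and 9 when recentred on the median change. The 3 called with tetracycline stayed 3 under these settings, but 20 passed a 2-fold change with a mean of at least 10 and no test. The count called for the difference went from 0 to 1 at an unadjusted p under 0.05. The 4 members past 2-fold for tetracycline in fed mice became 9 with a mean of at least 1 and 1 at a log2 difference of 2. The 5 in fasted mice became 10 and 2. Members past a 2-fold fasting change numbered 15 to 19 against 13 without tetracycline and 15 to 28 against 20 with it when a library was left out, alternatives chosen after seeing the data. All 9 calls without and 3 with tetracycline kept their direction when any library was left out. Without tetracycline Cyp2e1 fell short of 2-fold when fed library 2 was left out (0.99 on the log2 scale). Cyp4f16 was under 2-fold with all libraries (-0.96), and ran from -1.06 without fasted library 1 to -0.87 without fasted library 2. No paired analysis was possible because the libraries carry no number from the labels. Of 300 settings for single genes 72 moved the change by more than its error, all of them a library left out. With 2 libraries per side precision is low, and low members such as Cyp4a31 rest on few reads.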
